A study of Mus musculus with 2 samples.

Results

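The beta globin cluster of mouse chromosome 7 was described from DNase-seq of spleen. Its members were the 5 listed genes Hbb-bs, Hbb-bt, Hbb-bh1, Hbb-bh2 and Hbb-y, of 21938 protein-coding genes in GENCODE M21. Around them, all open sites were taken from 60 kb outside the first to 60 kb outside the last gene, chr7:103752524-103913216 on mm10. This window of 160.693 kb held 8 of 48286 peaks in replicate 1 and 4 of 28837 in replicate 2, and 31 of 191945 and 18 of 125693 footprints. The stretch upstream of Hbb-y up to Olfr66, the next protein-coding gene, is called the control region (chr7:103854217-103879442, 25.2 kb).

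DNase I cuts DNA where nucleosomes or other proteins leave it open, a peak is a stretch with many cuts, and a footprint is a short protected stretch, mostly within a peak. The nuclei came from whole spleen of B6CASTF1/J males, an F1 strain, aged 14 days. All samples formed 1 group with no treatment and no contrast, so no test between conditions was possible. Replicate 1 was made from material of 3 males and replicate 2 from 1 male, both carry the same donor entry, and each has 1 library. The files give 1 value per site and do not separate the alleles of the F1. Peak signals are the authors' own values, and the labels and files name neither their scale nor the read depth. Each library had 2 peak lists, and the list with fewer bases, called strict, was the main one.

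Beta globin is the partner of alpha globin in hemoglobin. Hbb-bs and Hbb-bt are the adult genes, used by definitive red cells, whereas Hbb-y and Hbb-bh1 are expressed in the primitive red cells of the early embryo. High expression depends on a distant locus control region upstream of Hbb-y, whose open sites bind erythroid factors such as GATA1 with TAL1, NF-E2 and KLF1 and contact the promoters of active genes. The spleen of young mice is a site of red cell formation as well as a lymphoid organ.

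The promoters of both adult genes, where peaks were called, and of the embryonic gene Hbb-y, where none was, are shown for comparison. Each run is the 150 bases before the RefSeq start (GRCm38.p6, minus strand of chromosome 7). Capitals mark matches to the CACCC box (CCNCACCC), the CCAAT box (CCAAT) and the TATA box (TATAAA, its variant CATAAA, or the variant TATAAG), searched on both strands. The Hbb-bs run is chr7:103827929-103828078, the Hbb-bt run chr7:103813924-103814073 and the Hbb-y run chr7:103853208-103853357.
Hbb-bs: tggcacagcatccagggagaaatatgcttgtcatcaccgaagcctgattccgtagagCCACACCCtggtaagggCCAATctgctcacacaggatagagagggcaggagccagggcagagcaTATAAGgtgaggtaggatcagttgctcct
Hbb-bt: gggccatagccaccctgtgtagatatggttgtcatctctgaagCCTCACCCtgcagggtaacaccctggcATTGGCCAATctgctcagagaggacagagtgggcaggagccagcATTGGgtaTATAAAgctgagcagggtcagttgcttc
Hbb-y: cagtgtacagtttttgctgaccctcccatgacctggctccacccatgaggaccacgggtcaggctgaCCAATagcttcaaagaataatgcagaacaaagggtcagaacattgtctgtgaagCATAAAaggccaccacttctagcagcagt

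Of the open sites of the control region, the pair called in both libraries is shown, with 1 flanking site added after its values were seen. The sites lie 6.1 kb (chr7:103859201-103859380), 7.9 kb (chr7:103861001-103861200) and 60 kb (chr7:103913081-103913276) upstream of the Hbb-y start. They are from the mm10 reference, on the minus strand, which is that of all 5 genes. Capitals mark the footprints of replicate 1.
Site at 6.1 kb: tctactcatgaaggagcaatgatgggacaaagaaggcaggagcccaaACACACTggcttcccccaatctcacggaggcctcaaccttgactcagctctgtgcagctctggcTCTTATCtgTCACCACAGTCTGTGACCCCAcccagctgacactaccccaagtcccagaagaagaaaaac
Site at 7.9 kb: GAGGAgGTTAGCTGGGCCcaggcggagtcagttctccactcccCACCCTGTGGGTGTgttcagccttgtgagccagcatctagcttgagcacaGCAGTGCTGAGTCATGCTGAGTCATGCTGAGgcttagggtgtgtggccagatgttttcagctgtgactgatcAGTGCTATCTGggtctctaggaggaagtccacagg
Site at 60 kb: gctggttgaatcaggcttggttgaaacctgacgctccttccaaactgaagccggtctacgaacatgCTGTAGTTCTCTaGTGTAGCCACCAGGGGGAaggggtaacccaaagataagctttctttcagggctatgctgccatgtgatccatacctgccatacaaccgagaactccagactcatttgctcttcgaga

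Both adult genes had an open promoter in both libraries, and the other 3 genes had none. A strict peak within 1000 bases of a start site was thus called in both libraries at 2 of 5 members, beside 51.1% of all protein-coding genes. The count was 2 in either library alone. In bulk tissue, fewer cells of a type and less signal per cell cannot be told apart.

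The adult gene Hbb-bs (ENSMUSG00000052305.6, chr7:103826534-103828096) had a promoter peak of signal 6.03 in replicate 1 and 2.75 in replicate 2. Its neighbour Hbb-bt (ENSMUSG00000073940.3, chr7:103812524-103813996) had 6.46 and 2.69. Both genes were higher in replicate 1, and their order swapped between the libraries. Mean signal was 4.39 ± 2.32 (SD, n = 2) for Hbb-bs and 4.58 ± 2.67 (SD, n = 2) for Hbb-bt. Both genes were measured in the same 2 libraries, so this SD describes the libraries and is no yardstick for the difference between the genes.

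Among genes with a promoter peak, these levels were ordinary. The Hbb-bs promoter was above 44.9% of peaked genes in replicate 1 and 28.3% in replicate 2, and Hbb-bt above 46.8% and 27.6%. The genes nearest to Hbb-bs in promoter signal over the 2 libraries, by distance on the log2(signal + 1) scale, were Hdac6, a protein deacetylase (6.04 and 2.75), Hmgb3, a chromatin protein (6.09 and 2.76), and Tmcc2 (6.02 and 2.72). Hbb-bt stood at rank 36 by the same measure.

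The peaks lie over the starts of the genes. In replicate 1 the Hbb-bs peak (chr7:103827861-103828100) ran from position -172 to 68 about the RefSeq start, and the Hbb-bt peak (chr7:103813861-103814080) from -157 to 63. Replicate 2 placed them at chr7:103827821-103828060 and chr7:103813821-103814060. All 4 peaks hold promoter, 5′ untranslated and first coding bases.

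The same stretch of both adult promoters was protected in both libraries. It reached from -41 to -17 of the Hbb-bs start in replicate 1 and from -41 to -15 in replicate 2. In Hbb-bt it reached from -41 to -15 and from -40 to -12. This stretch holds the TATA box, which begins at -29 in Hbb-bs and -28 in Hbb-bt, the base before the start counted as -1.

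A further footprint overlapped the CCAAT box, at -76 to -72 of Hbb-bs and -75 to -71 of Hbb-bt, in both genes and both libraries. Matches were counted inside a footprint after it was widened by 5 bases. By that count the CACCC box of Hbb-bs (-93 to -86), the kind of element that KLF1 binds, was inside a footprint in replicate 1 and not in replicate 2. That of Hbb-bt (-107 to -100) was inside none, but touched a replicate 1 footprint that reached from -100 to -86. Shorter CACCC letters nearer the Hbb-bt start, as in aacaccctgg, do not match CCNCACCC and were not searched. By their place in the printed run, the CACCC letters of aacaccctgg overlapped that replicate 1 footprint and a replicate 2 footprint from -88 to -69. After widening by 5 bases, each of these footprints held them. Which CACCC letters of Hbb-bt serve as its element was not tested. The Hbb-bt promoter has further CCAAT letters on the other strand, at -80 to -76 and -36 to -32, and both were inside footprints in both libraries.

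**Figure D1:**
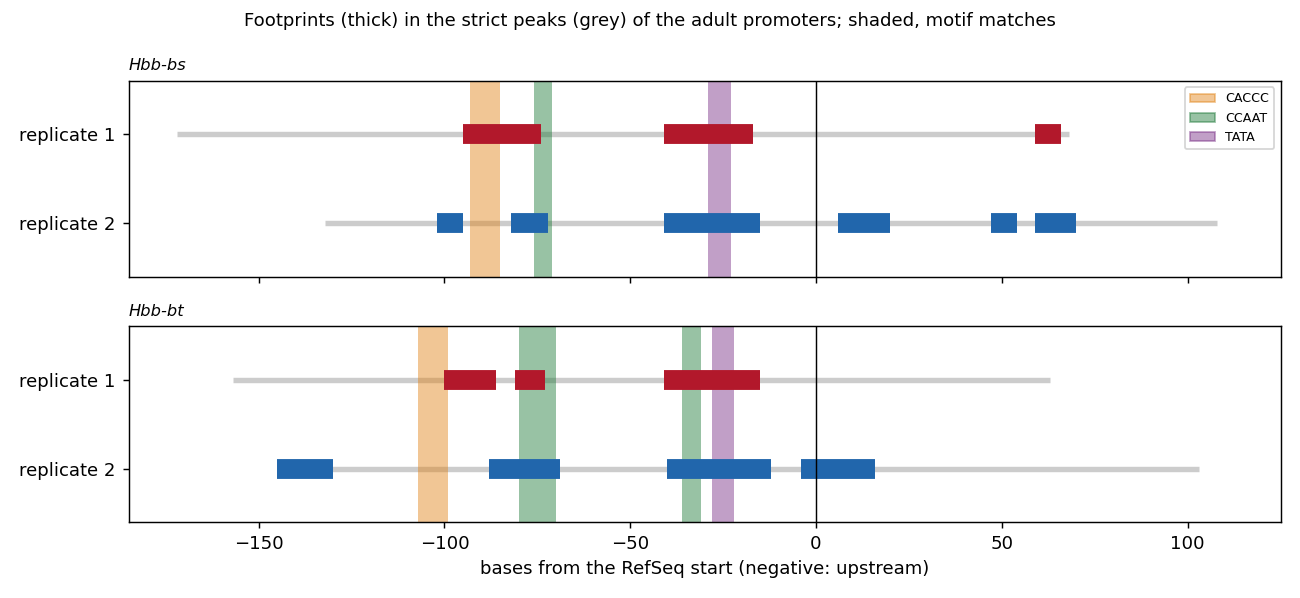
Footprints of the adult promoters by distance from the RefSeq start in bases, 1 row per library, with strict peaks in grey and matches to the CACCC box, the CCAAT box and the TATA box shaded. The footprint over the TATA box starts at -41 or -40 in both genes and both libraries.

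The promoter of Hbb-y shares some of these letters with the adult genes. Upstream of Hbb-y, a CCAAT box lies at -83 to -79 and a TATA box at -29 to -24. A further TATA match lies at -158 to -153, and no match to CCNCACCC lies in the 250 bases before the Hbb-y start. Shorter CACCC letters, as in ggctccaccc of the printed run, were not searched here either. The absence thus holds for the CCNCACCC pattern alone. Among 32851 RefSeq promoters, 14.9% hold the CACCC box, 33.8% the CCAAT box and 24.9% the TATA box in 250 bases, so such matches alone are common. In the 250 bases before Hbb-bh2, a GATA match at -167 to -162 was found and no match to the boxes marked above. Between Hbb-bs and Hbb-bt the 150 bases before the start were 73.7% identical, against 52.6% between Hbb-bs and Hbb-y and 49.1% between Hbb-bs and Hbb-bh2. Hbb-bh1 had no entry among the RefSeq promoters used, so its promoter letters and identity were not examined.

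The other members had no sign of opening in these files. The embryonic genes Hbb-y (ENSMUSG00000052187.4, chr7:103851749-103853216) and Hbb-bh1 (ENSMUSG00000052217.6, chr7:103841637-103843164) and the beta-like gene Hbb-bh2 (ENSMUSG00000078621.2, chr7:103839124-103840520) had 0 peaks at their promoters, in the larger lists too. The authors also deposited runs of bases with a false discovery rate (FDR) under 0.05, and 0 such bases lay in the promoters or bodies of these 3 genes in either library. Within the 25120 bases from the Hbb-bs promoter to the control region, which hold all 3 genes, neither library had a base under 0.05 or a footprint. The FDR files list bases up to 0.05 alone, so a weaker signal there was not detectable.

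**Figure D2:**
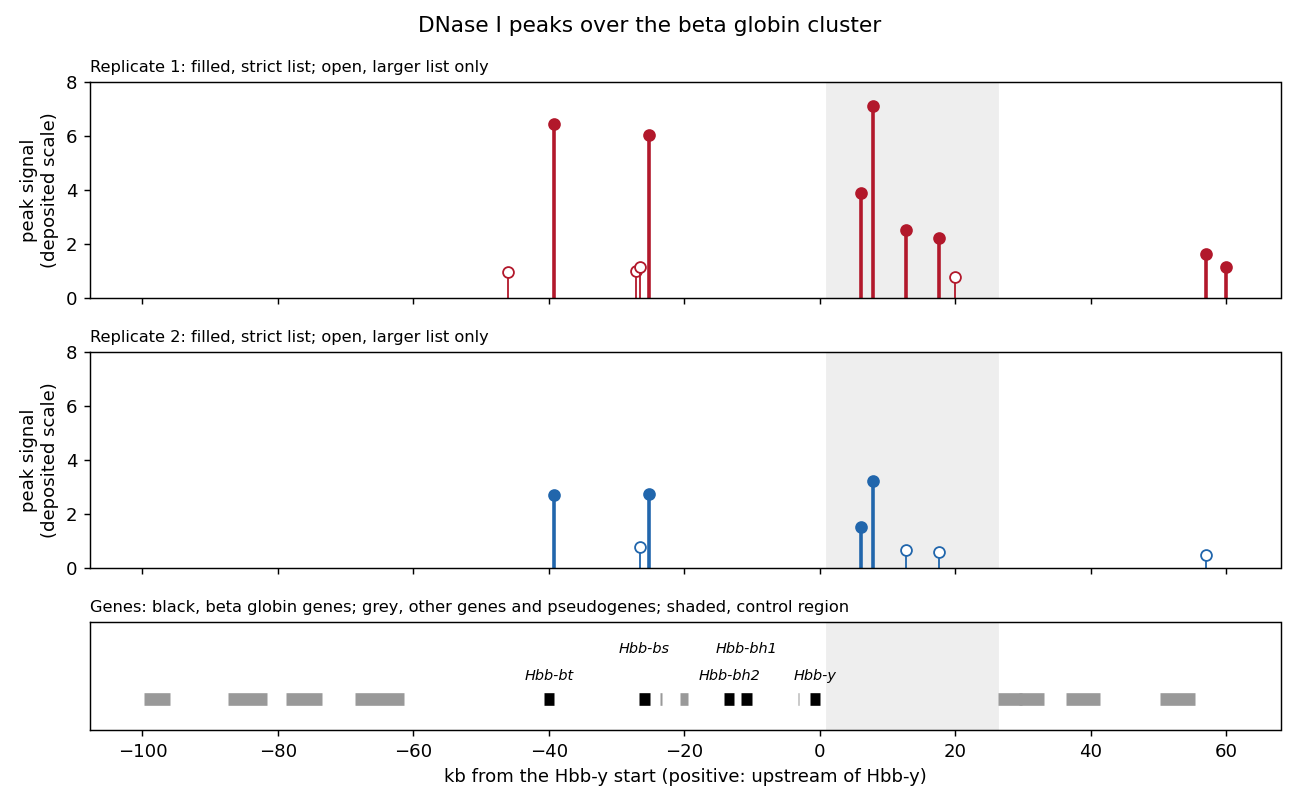
Peak signal of each site by distance in kb from the Hbb-y start, replicate 1 above and replicate 2 in the middle, with the genes below and the control region shaded. The adult promoters and the sites at 6.1 and 7.9 kb are filled in both libraries, and the stretch from Hbb-bs to Hbb-y has no peak.

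The adult genes are near-identical copies, which bears on how reads could be placed. Their bodies were 96.0% identical, and 70.3% of the 31-base words of Hbb-bs and 74.6% of those of Hbb-bt occurred at another place, in each case within the window. At the promoter sites the share was lower, 15.6% for Hbb-bs and 14.3% for Hbb-bt. The labels do not say how reads that match both copies were placed, so the split of signal between the 2 adult genes is uncertain to that extent. The 5 sites of the control region in any list had no such word, nor did the bodies of Hbb-bh1, Hbb-bh2 and Hbb-y. With words of 24 bases, 4 of 177 words recurred at the site at 7.9 kb and none at the other control region sites. In the bodies, 7 of 1505 such words recurred in Hbb-bh1, 6 of 1445 in Hbb-y and none in Hbb-bh2.

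A weaker site lay at the other end of Hbb-bs, in the larger lists alone. It covered the end of the coding sequence and the 3′ untranslated region (chr7:103826589-103826776), with signals of 1.13 and 0.773. At this site 34.2% of the 31-base words recur within the window. A site between the adult genes (chr7:103825964-103826089) was in the larger list of replicate 1 alone (1.02).

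The control region held 4 strict peaks in replicate 1 and 2 in replicate 2, none of them in an annotated exon. The site 7.9 kb upstream of Hbb-y had the highest signal of the window in both libraries, 7.12 and 3.22. It stood above 86.8% of all strict peaks in replicate 1 and 69.6% in replicate 2. Among distal peaks, those over 1000 bases from any start site, the shares were 98.1% and 90%. The lowest FDR of the window lay there too, 1.99e-36 and 6.60e-16.

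The site at 6.1 kb, 1.6 kb away, had signals of 3.89 and 1.5. It was above 93.0% of distal peaks in replicate 1 and 58.6% in replicate 2. Its lowest FDR was 4.63e-21 and 1.46e-07.

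Beyond it, the sites at 12.7 kb (chr7:103865801-103866040) and 17.6 kb (chr7:103870741-103870980) were strict peaks in replicate 1, with signals of 2.52 and 2.22. In replicate 2 they were in the larger list, with 0.683 and 0.586. A site at 20 kb (chr7:103873216-103873314) was in the larger list of replicate 1 alone (0.781). With the larger lists, replicate 1 thus had 5 sites in the control region and replicate 2 had 4. The order of the 4 sites from high to low was 7.9, 6.1, 12.7 and 17.6 kb in both libraries.

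The control region was dense in open sites. Among 108033 tiles of 25.2 kb over the genome, 0.864% held at least 4 distal strict peaks in replicate 1 and 1.84% at least 2 in replicate 2. Most tiles, 83.9% and 92.1%, held none. The share of control region bases with an FDR under 0.05 was 6.57% in replicate 1 and 3.30% in replicate 2, beside 2.22% and 1.14% of the whole window, the control region included.

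**Figure D3:**
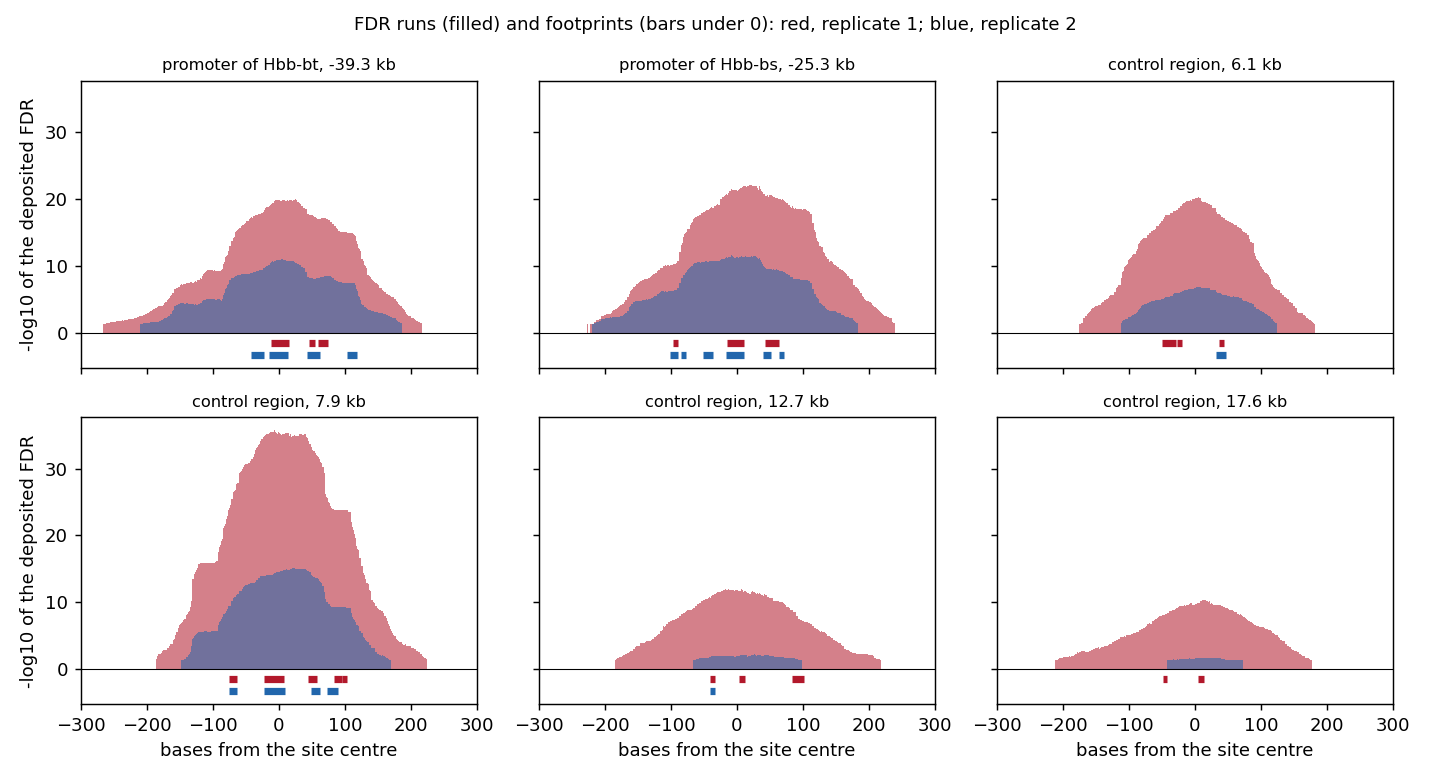
The −log10 of the deposited FDR by distance in bases from the centre of each site, replicate 1 in red and replicate 2 in blue, with footprints as bars under the axis. The site at 7.9 kb reaches 35.7 and 15.2, and the sites at 12.7 and 17.6 kb reach 12.0 and 10.4 in replicate 1 and 2.2 and 1.7 in replicate 2.

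Erythroid motif letters were found under the control region sites. In the 200 bases centred on the replicate 1 peaks, GATA letters (the core GATA with A or T before and A or G after it, for instance AGATAA) were in 4 of 4 sites, beside 27.8% of 27640 distal peaks. NF-E2 letters (GCTGAGTCA) were in 2 of 4, beside 1.14%, and CACCC letters in 3 of 4, beside 12.7%. The peak at 12.7 kb holds an NF-E2 and a CACCC match too, both outside the centred 200 bases. The E-box (CAGNTG) was in 4 of 4, beside 54.1%, and the TAL1-GATA composite, which overlaps a GATA match, in 2 of 4, beside 6.17%. GATA letters were not particular to the control region, as 2 of 2 strict flanking sites had them. Those flanking sites had the E-box in 1 of 2, and NF-E2, CACCC and TAL1-GATA letters in 0 of 2. A match is a description of letters and not a sign that a factor was bound, and 4 sites give no precision to these shares.

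The pair of NF-E2 matches in the site at 7.9 kb lies within 1 footprint in both libraries. The matches start 10 bases apart (chr7:103861084-103861102), and the footprint spanned 31 bases in replicate 1 and 33 in replicate 2. NF-E2 is a leucine zipper dimer of a red cell and platelet subunit with a small Maf protein. The same site has 1 GATA match and 1 CACCC match, each inside a footprint in both libraries. The replicate 2 footprint over the GATA match (chr7:103861025-103861035) lies just outside the replicate 2 peak, which starts at 103861041.

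At the other control region sites the footprints differed more between the libraries. The site at 6.1 kb had 3 footprints in replicate 1, which held its GATA and CACCC matches, and 1 in replicate 2, which held neither. Its NF-E2 match was inside no footprint. At 12.7 kb, 1 of 4 GATA matches was in a footprint of replicate 1, and at 17.6 kb 1 of 2. The 2 sites had 1 and 0 footprints in replicate 2.

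In footprints per peak, the cluster was slightly above all strict peaks and below peaks of at least its lowest signal, but per kb the libraries went opposite ways. All strict peaks of the window held at least 1, with 3 per peak in replicate 1 beside 2.86 over all strict peaks, and 3.5 in replicate 2 beside 3.01. Peaks at or above the lowest signal in the window held more, 3.57 and 3.93 per peak. The control region peaks alone held 3.25 and 2. Per kb of peak, the window held 14 footprints in replicate 1, below the 14.6 of all strict peaks, and 17.1 in replicate 2, above 15.2. The share of peak bases in footprints was 19.3% beside 21.1% in replicate 1 and 29% beside 22.6% in replicate 2. Of the 31 footprints of replicate 1, 13 (41.9%) overlapped one of replicate 2, beside 42% of all. Of the 18 in replicate 2, 13 (72.2%) overlapped one of replicate 1, beside 66.6% of all.

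Outside the genes and the control region, strict peaks were called in replicate 1 alone. They lay 57.0 kb (chr7:103910101-103910300, signal 1.63) and 60 kb (signal 1.16) upstream of the Hbb-y start, beyond the olfactory receptor gene Olfr65. The second crosses the edge of the window. Replicate 2 had the site at 57.0 kb in its larger list (0.472) and no peak at 60 kb. On the far side, 5.4 kb past the end of Hbb-bt, a site (chr7:103807046-103807123) was in the larger list of replicate 1 (0.982).

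CTCF, the factor that bounds chromatin loops, is known to bind on both flanks of the cluster. No site of the window had an exact match to a CTCF consensus of 13 letters, beside 11.4% of distal peaks. With up to 1 mismatched letter, a setting chosen after seeing the data, 1 of 12 sites in any list matched, that at 60 kb, beside 29.9% of distal peaks. With up to 2, 3 of 12 matched, as the site past Hbb-bt and the 3′ site of Hbb-bs did too, beside 46% of distal peaks. Both shares were below those of distal peaks, but the sets are unlike. The 12 sites include the adult promoters and sites in larger lists alone, the 2 added among them, whereas the distal peaks are all strict. The comparison thus carries no conclusion. In all 3 cases a match lay in a replicate 1 footprint widened by 5 bases, and no share over other footprints was computed.

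The cluster stood alone among open sites on 1 side. The next strict peak beyond Hbb-bt was 1065.1 kb outside the window, the same in both libraries. On the Hbb-y side it was 29.6 kb outside in replicate 1 and 286.8 kb in replicate 2. Inside the window, 31.1 kb without a strict peak separated Hbb-bs from the site at 6.1 kb.

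Sharing between the libraries was near the background. In replicate 1, 4 of 8 strict peaks of the window overlapped a strict peak of replicate 2, beside 53.1% of all its peaks. In replicate 2, 4 of 4 overlapped one of replicate 1, beside 89.1%. The 4 shared sites were the adult promoters and the sites at 6.1 and 7.9 kb.

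The cluster was stronger in replicate 1 by more than most sites were. On the log2 scale, the ratio of replicate 1 to replicate 2 was 1.26 at Hbb-bt, 1.13 at Hbb-bs, 1.37 at 6.1 kb and 1.14 at 7.9 kb. Over all 25633 shared sites the median was 0.57, and over the 10468 distal ones 0.40. The 4 sites stood above 94.2%, 90.4%, 96.4% and 90.7% of shared sites. In the larger lists the ratio at 12.7 kb was 1.88, at 17.6 kb 1.93 and at 57.0 kb 1.79, each above at least 99.4% of 36761 shared sites, while at the 3′ site of Hbb-bs it was 0.55, beside a median of 0.53. With 1 library each, the difference has no replicate check.

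**Figure D4:**
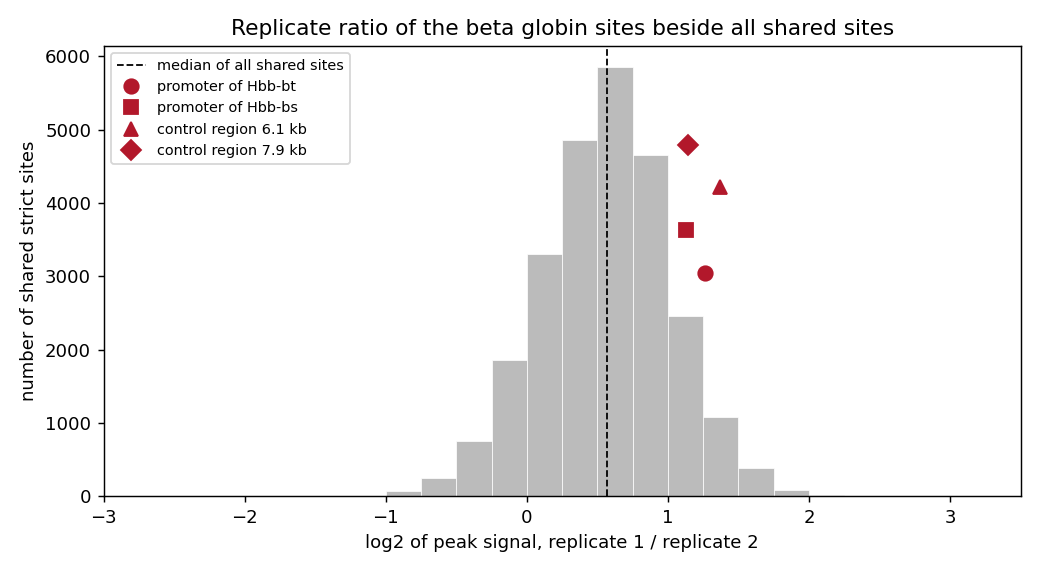
Histogram of the log2 ratio of peak signal, replicate 1 over replicate 2, for 25633 shared strict sites, with the median dashed and the 4 sites of the cluster as symbols, whose height has no meaning. All 4 sites lie to the right of the median, between 1.13 and 1.37.

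Marker genes of red cells were higher in replicate 1 too, and so were the sums of the other cell type lists with any signal. A strict promoter peak in both libraries was called at 7 of 8 red cell genes, 3 of 4 B cell genes, 2 of 4 T cell genes and 0 of 4 macrophage, 0 of 4 granulocyte and 0 of 4 hepatocyte genes, beside 51.1% of all protein-coding genes. The T cell share was thus near the background. Alas2, the first enzyme of heme synthesis in red cells, had one in replicate 1 alone (0.839). The summed promoter signal was 58.4 and 28 for the red cell list, 22.1 and 8.38 for the B cell list, 8.99 and 7.89 for the T cell list, 2.18 and 0 for the macrophage list, 0.562 and 0 for the granulocyte list and 0 and 0 for the hepatocyte list. All lists with any signal were thus higher in replicate 1. So were genes in general, with a median of 1.63-fold over all genes peaked in both libraries. The T cell sum rose by less than that.

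Among the 7 red cell genes, the log2 ratio ran from 0.52 at Rhag to 1.75 at Epb42, a membrane skeleton protein, beside a median of 0.70 over all genes peaked in both libraries. In the 3 B cell genes it ran from 1.04 at Pax5 to 1.56 at Cd79a. Of the T cell genes, Cd3d had 1.15 and Lck 0.15. Cd3g went the other way, with a strict promoter peak in replicate 2 alone (1.04), and Cd3e had none in either. The part of cell composition in the higher globin signal of replicate 1 was not tested.

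Of the 20 listed genes of factors known to act at the cluster, 20 had a strict promoter peak in both libraries, beside 51.1% of all protein-coding genes. The highest mean promoter signals were 26.7 at Nr2c2, a nuclear receptor that represses embryonic globin genes, and 23.1 at Zfpm1, the GATA1 partner FOG1. The red cell factors named above were lower, with 9.46 at Nfe2, 4.41 at Tal1, 3.2 at Klf1 and 1.61 at Gata1, the lowest of the list. These 4 were chosen after their values were seen. Many of these genes are used by other cells too, so their promoters are no measure of red cells.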

How the data were processed

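DNase-seq libraries of 2 spleen replicates were analysed from deposited files, on mm10 per the labels. The authors deposited 2 peak lists per library with a signal value for each peak, FDR values (a p-value type of unit) for runs of bases, and footprints whose score column is the constant 0.01. The labels and file headers name no aligner, caller or read depth, so no counting interval is given. Promoters were 1000 bases either side of any GENCODE M21 start, with the best strict peak as signal, or 0. Peaks were shared if they overlapped by 1 base. Motifs were exact matches on both strands of the RefSeq genome GRCm38.p6. No test was run, as there is 1 group of 2 libraries. The labels call the 2 replicates biological, from material of 3 males and of 1 male, yet both carry the same donor entry. Whether the animals were independent is not stated, and part of the spread may be technical.

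The members and lists were chosen with earlier results of these data known. The named genes were every member, the 3 genes nearest to Hbb-bs in promoter signal, the genes bounding the elements, and at most 6 of 20 factors. Marker genes came from fixed lists, and those given values were chosen after their values were seen. Of the marker genes first listed, 1 was left out of all lists and is not reported here, and the others are given as counts and sums. Alternatives covered the peak list, promoter width, flank, overlap, motif window, footprint widening, word length and leaving out each replicate. The overlap, promoter, motif and word steps were tested on simulated data and recovered 17 of 17 known answers. Python 3.11.15, numpy 2.4.6, scipy 1.17.1, Biopython 1.88, numba 0.67.0 and matplotlib 3.10.9 were used.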

Additional observations from a re-analysis of the deposited data

How the results depend on the processing

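Of 60 alternatives, 43 left a value within its spread, or a count within 1.5 times, and 17 moved it further. Reversal of a direction was not assessed. The count of 2 members with a promoter peak was the same under all 5 of its alternatives, and ranged from 2 to 2 without 1 replicate. With the larger lists, the control region had 4 peaks in replicate 2 and 4 shared sites, and the window 8 peaks in replicate 2 and 8 shared sites. The share of tiles as dense as the control region in replicate 2 was then 0.61%, and the median log2 ratio of the cluster, less that of all shared sites, 0.79 in place of 0.63. Against distal sites it was 0.81. With the strongest 50% of strict peaks, the control region had 1 peak in replicate 2 and 1 shared site. Leaving out 1 replicate, the sites counted ranged from 2 to 4 in the control region and from 4 to 8 in the window, and the footprints in control region peaks from 4 to 13. In 100 bases, CACCC letters were in 0 of the 4 control region sites. In 300 bases, they were in 4 of 4, beside 16.6% of distal peaks, and NF-E2 letters in 3 of 4, beside 1.32%. Without widening, 4 of the 16 GATA, NF-E2 and CACCC matches of the control region lay in footprints of replicate 1, in place of 8. CTCF letters, exact in 0 sites, were in 1 and 3 sites with up to 1 and 2 mismatches, settings chosen after seeing the data. No paired analysis was possible because there is 1 group. Depth is unknown, and 2 libraries limit every value.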
